A study of Homo sapiens with 6 samples.

Results

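Accessible chromatin was mapped around 5 genes that steer a B cell from the germinal centre to the plasma cell: BCL6, BACH2, PRDM1, IRF4 and XBP1. The genes were chosen by name, and every accessibility summit in the body of a gene or within 100 kb of either end of it was taken, on the human build hg38. This gave 379 of the 308461 summits on chromosomes 1 to 22 and X. Summits less than 250 bp apart were joined, over all libraries, into 100513 regions, of which 104 lay in the 5 windows. The BCL6 window held 14 of these regions, the BACH2 window 17, the PRDM1 window 24, the IRF4 window 33 and the XBP1 window 16.

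All libraries came from GM12878, a lymphoblastoid line of B cells immortalised by Epstein-Barr virus, so the cells were one cultured line and not germinal centre or plasma cells. InTAC-seq adapts ATAC-seq to cells that have been fixed and antibody-stained: the transposase Tn5 cuts open DNA and inserts sequencing adapters into it. The H3K27ac high group (2 libraries) and the H3K27ac low group (2 libraries) were fixed with paraformaldehyde, stained for this acetylation mark of active promoters and enhancers, sorted by staining, and had their crosslinks reversed. The live control group (2 libraries) was unsorted and its DNA was purified straight after transposition. No group carried an added allele or drug. The labels describe replicates as portions of 50000 cells, taken after the sort in the sorted groups. The p-values therefore measure only the spread between such portions, which may be technical. Sorting, fixation and crosslink reversal cannot be told apart between the sorted and the live libraries.

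The 5 genes belong to 1 regulatory circuit. BCL6 and BACH2 are transcriptional repressors that hold the germinal centre and activated B cell states, in part by repressing PRDM1. PRDM1 encodes BLIMP1, a repressor that shuts down BCL6 and the B cell programme. IRF4 is a dose-dependent factor used in activated B cells and needed for plasma cells, and XBP1 is the transcription factor of the unfolded protein response that expands the secretory apparatus.

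The promoters of these genes are printed because the region at the start was listed in every library at some members and only in part of the libraries at others. Each runs 5′ to 3′ on the strand of the gene, from 250 bases before to 50 bases after an annotated start (RefSeq, GRCh38.p14). In the first 2 sequences capitals mark motif matches: the BCL6 promoter at chr3:187745419-187745718 (minus strand) and the promoter of the PRDM1 start at position 106098941, chr6:106098691-106098990 (plus strand).

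BCL6: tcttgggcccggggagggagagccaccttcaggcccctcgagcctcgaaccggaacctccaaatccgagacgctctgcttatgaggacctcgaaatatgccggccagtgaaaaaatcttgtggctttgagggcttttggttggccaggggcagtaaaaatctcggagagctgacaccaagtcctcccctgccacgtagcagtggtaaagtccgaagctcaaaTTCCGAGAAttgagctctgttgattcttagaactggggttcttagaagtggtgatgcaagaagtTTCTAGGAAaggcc
PRDM1 internal start: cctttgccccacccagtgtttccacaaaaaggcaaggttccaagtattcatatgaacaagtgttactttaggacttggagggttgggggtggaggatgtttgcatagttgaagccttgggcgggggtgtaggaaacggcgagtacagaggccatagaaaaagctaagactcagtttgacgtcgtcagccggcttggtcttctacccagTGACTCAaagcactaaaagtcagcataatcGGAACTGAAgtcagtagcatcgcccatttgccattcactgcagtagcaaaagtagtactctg

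The BCL6 promoter held the paired half-site of the BCL6 protein, TTCCNNGAA, on both strands. TTCCGAGAA began 28 bases before the start, and TTCTAGGAA, a match on the other strand, began at base 37 of the transcribed side. Of 22156 promoters of protein-coding genes, 4.15% held this motif on either strand. The PRDM1 internal promoter held TGACTCA, a match to TGANTCA, the core shared by AP-1 and BACH factors, 42 bases before the start. It also held GGAACTGAA, a match to the ETS-IRF composite GGAANNGAA, 12 bases before the start. These motifs occurred in 6.16% and 7.37% of promoters. A second BCL6 start, at position 187736501, had TGAGTCA 77 bases upstream and no summit within 1 kb in any library.

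In the next 4 sequences capitals mark the stretch between the outermost summits of the region at the start, as far as it lies in the printed window. They are BACH2 at chr6:90296794-90297093 (minus strand), PRDM1 at chr6:106086086-106086385 (plus strand), IRF4 at chr6:391502-391801 (plus strand) and XBP1 at chr22:28800520-28800819 (minus strand).

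BACH2: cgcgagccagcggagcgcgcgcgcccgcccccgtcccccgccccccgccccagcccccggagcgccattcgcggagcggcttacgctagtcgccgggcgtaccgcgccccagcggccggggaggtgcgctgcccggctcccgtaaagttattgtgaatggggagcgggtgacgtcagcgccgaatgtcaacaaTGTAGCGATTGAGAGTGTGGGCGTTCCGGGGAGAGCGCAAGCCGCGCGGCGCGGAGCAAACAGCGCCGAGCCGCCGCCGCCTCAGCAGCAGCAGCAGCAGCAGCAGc
PRDM1 main start: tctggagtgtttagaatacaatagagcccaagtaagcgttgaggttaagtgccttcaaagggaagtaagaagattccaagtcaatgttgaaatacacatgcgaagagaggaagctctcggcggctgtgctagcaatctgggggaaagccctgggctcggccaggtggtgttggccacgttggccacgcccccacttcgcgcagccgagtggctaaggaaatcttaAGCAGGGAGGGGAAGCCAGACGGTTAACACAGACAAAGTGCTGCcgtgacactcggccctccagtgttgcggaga
IRF4: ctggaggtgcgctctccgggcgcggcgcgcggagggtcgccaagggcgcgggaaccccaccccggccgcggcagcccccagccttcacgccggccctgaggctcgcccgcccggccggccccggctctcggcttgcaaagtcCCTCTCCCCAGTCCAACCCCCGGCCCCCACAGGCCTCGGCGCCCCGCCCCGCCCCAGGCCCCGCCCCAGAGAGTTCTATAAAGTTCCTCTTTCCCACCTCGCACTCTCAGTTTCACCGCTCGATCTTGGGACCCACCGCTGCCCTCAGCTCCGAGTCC
XBP1: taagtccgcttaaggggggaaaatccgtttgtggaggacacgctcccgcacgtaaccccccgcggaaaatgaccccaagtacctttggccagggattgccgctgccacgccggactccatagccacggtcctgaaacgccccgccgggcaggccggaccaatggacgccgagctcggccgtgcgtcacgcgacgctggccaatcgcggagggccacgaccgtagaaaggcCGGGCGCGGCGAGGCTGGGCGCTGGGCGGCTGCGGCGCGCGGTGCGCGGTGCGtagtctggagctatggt

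None of the 7 motifs searched on both strands was in these 4 windows. Besides the 3 above, these were the BLIMP1 core GAAAGTG (4.4% of promoters), the unfolded protein response core TGACGTG (2.12%), the NF-kB motif GGGANTTCC (2.08%) and the ETS motif CCGGAAG (12.8%). The BACH2, IRF4 and XBP1 promoters were 73.3%, 74.0% and 68.7% G or C, against a median of 62.3% over all promoters. The BCL6 promoter (53.0%), the main PRDM1 promoter (54.3%) and the internal PRDM1 promoter (48.3%) lay below that median.

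To set libraries side by side, each library's regions were ranked by the authors' score, rank 1 being the best, and the best 25627 were kept from each. This is the whole list of the H3K27ac high replicate 1 library, the shortest; the other full lists held 41828 to 72284 regions. Such a list of equal length is called a best list below, and a rank says how strongly a site stood out within its own library, not how open it was in absolute terms. Of the 104 regions in the 5 windows, 52 were in at least 1 best list, and 23 were in all 6.

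The start of XBP1 was in all 6 best lists. Its region (chr22:28800537-28800589, overlapping the first bases of the gene) ranked 11385 and 9445 in the live libraries, 12498 and 14384 in the high libraries, and 9013 and 7716 in the low libraries. Both low libraries ranked it better than both high libraries, and the live ranks lay between. Between 29.4% and 37.2% of all 22132 annotated starts ranked better, depending on the library.

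The start of IRF4 was also in all 6 best lists, at chr6:391644-391819. It ranked 7586 and 10889 in the live libraries, 16888 and 22037 in the high libraries, and 8271 and 14636 in the low libraries. The high libraries placed it lower than all 4 other libraries did. The 6 summits lay from 108 bases before to 67 bases after the start.

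PRDM1 has 2 annotated starts in the promoter table. At the main one, position 106086336, the region ranked 8731 and 10459 in the live libraries, 15186 in high replicate 2, and 14645 and 13013 in the low libraries. High replicate 1 had no summit there. At the internal start, position 106098941, the region chr6:106098820-106098889 ranked 53022 and 22496 in the live libraries, 13874 in high replicate 2 and 20389 and 18334 in the low libraries, and was again missing from high replicate 1. Its summits lay 52 to 121 bases before the start, upstream of both motif matches. High replicate 1 had a summit in chr6:106097893-106098018, a separate region 11.6 kb from the main start, at rank 16426. The live libraries listed that region at ranks 35125 and 33937 and the low libraries at 28422 and 26977, all outside the best lists. High replicate 2 did not list it. A further region lay 93.8 kb upstream of the main start, beside the first base of the gene as the gene table draws it. It was in all 6 best lists, at ranks from 15905 to 24703.

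The start of BCL6 was weaker. Its region (chr3:187745514-187745620, inside the antisense gene BCL6-AS1) was listed in all 6 full lists but reached the best list only in the high libraries. It ranked 27066 and 40964 in the live libraries, 19558 and 22334 in the high libraries, and 33178 and 27743 in the low libraries. The high ranks did not overlap those of the other libraries. The summits lay 46 to 152 bases before the start, upstream of both paired half-sites. Live replicate 1 and low replicate 2 fell short of the best list by fewer ranks than high replicate 2 was inside it.

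The start of BACH2 reached no best list. Live replicate 2 ranked it 47526, low replicate 1 ranked it 38232 and low replicate 2 ranked it 45939, and the other 3 libraries listed no summit within 1 kb. In the libraries that listed it, 53.4% to 55.9% of all starts ranked better.

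Counting any annotated start of a gene, 3 of the 5 members, IRF4, XBP1 and PRDM1, had a start region in all 6 best lists, beside 44.9% of the 15812 protein-coding genes with an annotated start. PRDM1 met this through its main start in 5 libraries and through the region 11.6 kb from it in high replicate 1. The near edge of that region, set by live replicate 1, lay 923 bases from the internal start. The summit of high replicate 1 itself lay 1048 bases from that start, so PRDM1 met the 1 kb rule there only through the joined region. BCL6 had a start region in 2 of 6 best lists and BACH2 in 0 of 6.

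**Figure D1:**
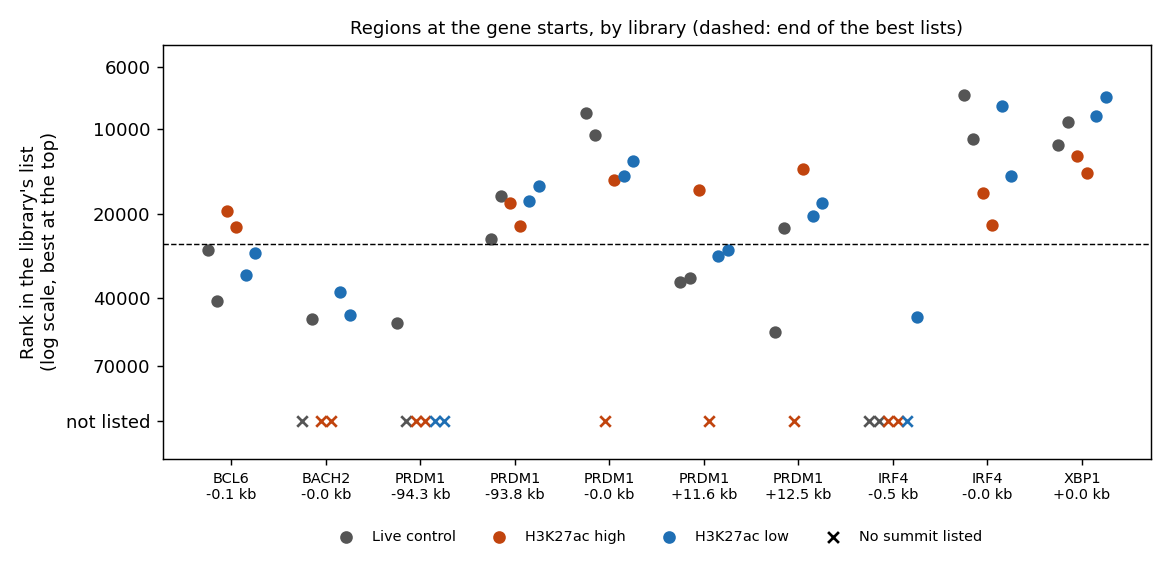
Rank of each region within 1 kb of a member's start or of the first base of the gene, by library, on an inverted log axis; each point is 1 library, a cross means no summit listed, and the dashed line is the end of the best lists at rank 25627. The XBP1 and IRF4 start regions have all 6 points above the line, the BCL6 region has only the high libraries above it, and the BACH2 region has none.

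The windows differed widely in their number of best regions. The IRF4 window held 10 and 10 best regions in the live libraries, 12 and 10 in the high libraries and 10 and 9 in the low libraries. The PRDM1 window held 8 and 9 in the live libraries, 9 and 10 in the high libraries, and 12 and 11 in the low libraries. The BACH2 window, the widest at 570 kb, held 8 and 6, 7 and 5, and 7 and 6 in the same order. The XBP1 window held 5 in every library, and the BCL6 window held 4 and 3, 5 and 5, and 4 and 4.

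Per 100 kb of window, the mean over 6 libraries was 4.63 best regions for IRF4, 3.1 for PRDM1, 2.43 for XBP1, 1.86 for BCL6 and 1.14 for BACH2, and the median over protein-coding genes was 1.54. In the order of mean counts, IRF4 (10.17) and PRDM1 (9.83) came first, and BACH2 (6.5), XBP1 (5.0) and BCL6 (4.17) followed. Each neighbour in this order overlapped the next in the range of its 6 libraries. Among all protein-coding genes, 94.8% had a lower mean than IRF4, 93.8% than PRDM1, 76.9% than BACH2, 62.3% than XBP1 and 52.4% than BCL6. Some of these regions belong to neighbours: 5 of the 7 IRF4-window regions held by all 6 lists were inside the phosphatase gene DUSP22.

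**Figure D2:**
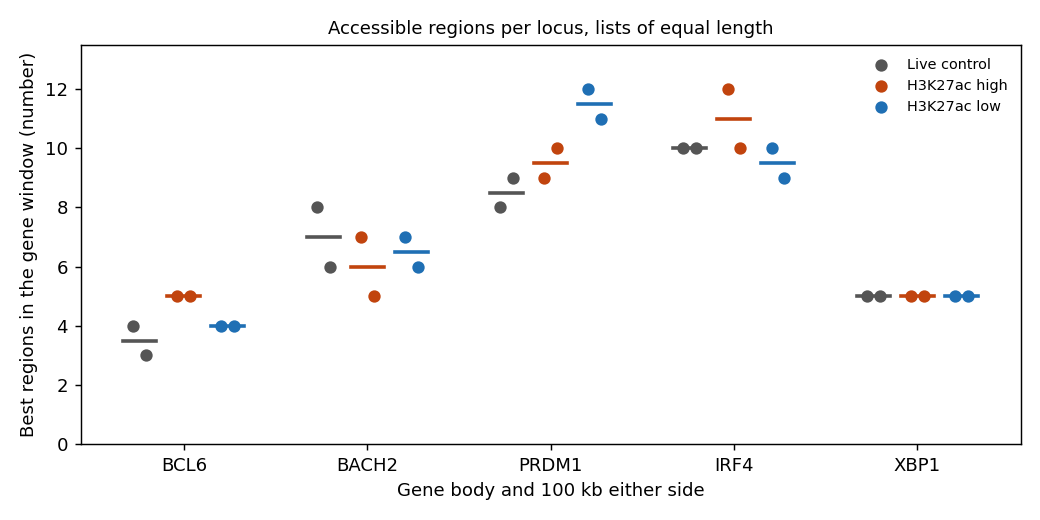
Number of best regions in each gene window (gene body and 100 kb either side), by library; points are libraries and bars are group means of 2 libraries. PRDM1 is the window where both low libraries (12 and 11) lie above both high libraries (9 and 10); in the BCL6 window both high libraries (5 and 5) lie above both low libraries (4 and 4).

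Between H3K27ac high and low cells, the BCL6 window had 1.0 more best region in high (5.0 ± 0.0 against 4.0 ± 0.0, SD, n = 2) and the PRDM1 window had 2.0 fewer (9.5 ± 0.71 against 11.5 ± 0.71). Both had groups that did not overlap, with p = 0.333 in an exact two-sided permutation test, the smallest that 2 against 2 libraries can give. Over all genes with a region, high lay above low without overlap in 6.17% of windows and low above high in 15.6%, so 1 of 5 members in each direction is to be read against these shares. The extra BCL6 region was the start region itself. Neither direction held at every list length. With the best 50 percent of the list length, the PRDM1 difference turned to 2.0 more in high and the BCL6 difference was 0.0. With full lists the BCL6 difference was -1.5 and the PRDM1 difference -4.0, and in the gene body alone the PRDM1 difference was -0.5.

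The other windows overlapped between high and low. IRF4 differed by 1.5 (11.0 ± 1.41 against 9.5 ± 0.71, SD, n = 2; exact permutation p = 0.667), BACH2 by -0.5 (6.0 ± 1.41 against 6.5 ± 0.71; exact permutation p = 1.0) and XBP1 by 0.0 (exact permutation p = 1.0). With full lists the IRF4 difference was -2.0, and with the best 50 percent of the list length the BACH2 difference was 0.5. Over the 5 windows together, the high libraries held 38 and 35 best regions and the low libraries 38 and 35.

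Between the 4 sorted and the 2 live libraries, no member window had groups without overlap, beside 3.04% of windows with sorted above live and 6.2% with live above sorted. PRDM1 had 2.0 more best regions in the sorted libraries (10.5 ± 1.29, n = 4, against 8.5 ± 0.71, n = 2; exact permutation p = 0.2). BCL6 had 1.0 more (4.5 ± 0.58 against 3.5 ± 0.71; exact permutation p = 0.267). IRF4 differed by 0.25, BACH2 by -0.75 and XBP1 by 0.0, with exact permutation p-values of 1.0, 0.667 and 1.0. The smallest p for 4 against 2 libraries is 0.0667. With Benjamini-Hochberg adjustment over 18613 genes, the adjusted p was 1.0 for every member in both exact permutation comparisons, and 0 genes had an unadjusted p under 0.05 in either. With full lists the PRDM1 and BCL6 differences turned to -6.5 and -5.25, and in the gene bodies alone they were 0.25 and 0.0.

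**Figure D3:**
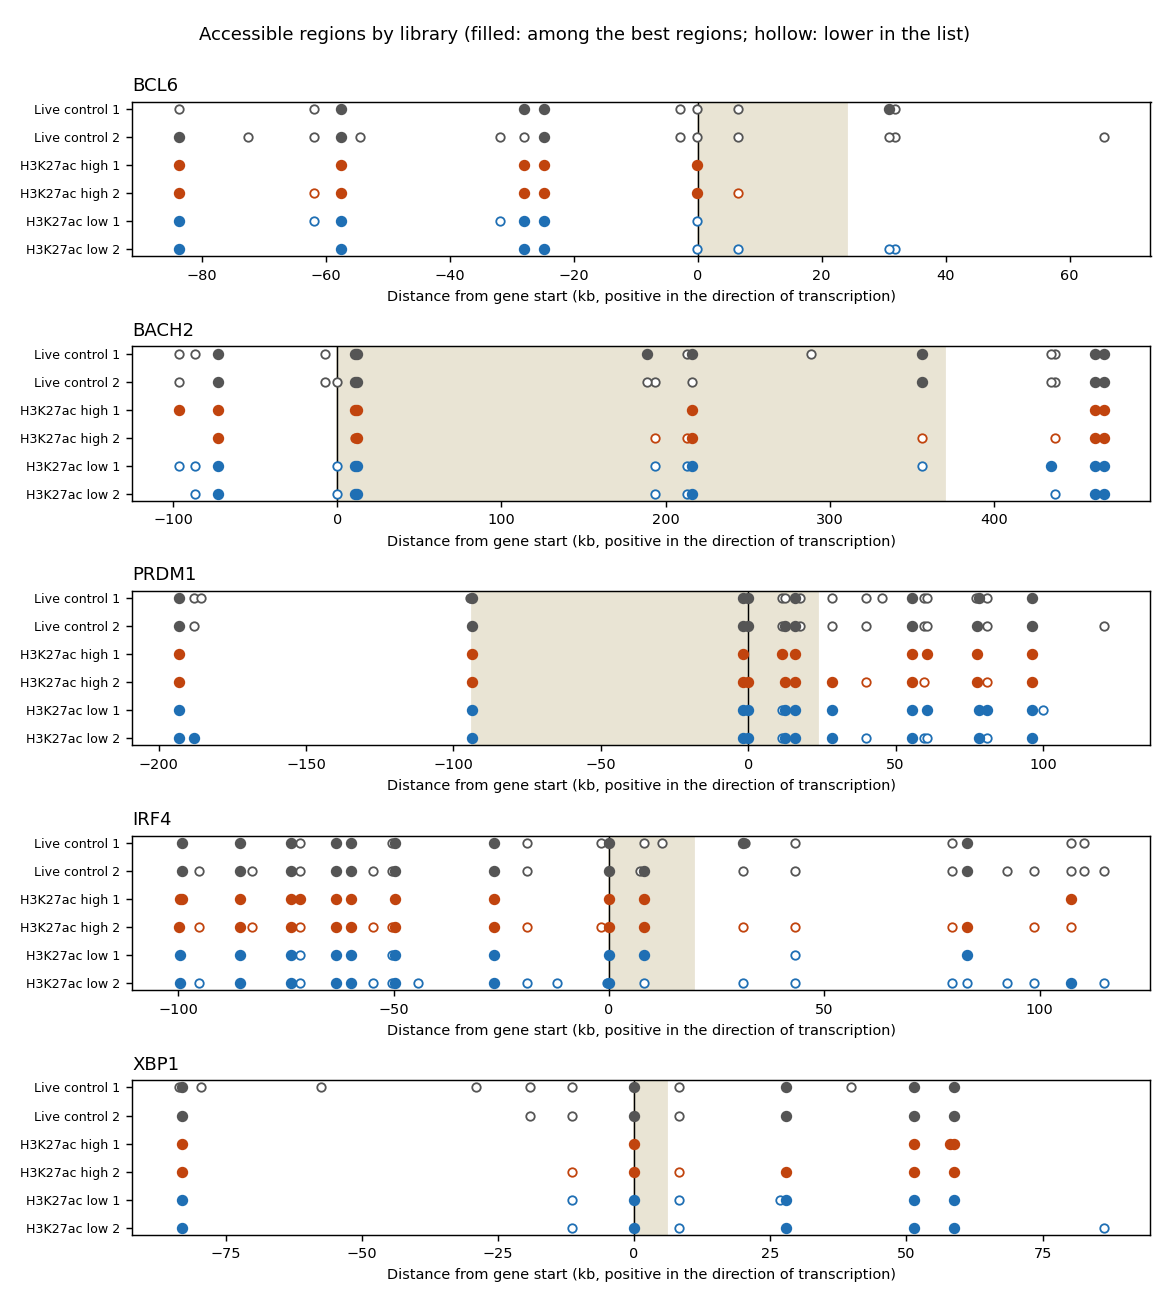
Regions in each window by library, placed by distance from the gene start in kb, positive in the direction of transcription; filled circles are in the library's best list, hollow circles lower in its full list, and the shaded band is the gene body. The IRF4 window shows a row of filled circles in all libraries between 85.7 and 26.7 kb upstream, and the BCL6 window shows its all-library regions 24.9 and 57.6 kb upstream.

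At BCL6, the regions held by all 6 best lists lay upstream and not at the start. The region 57.6 kb upstream (chr3:187802993-187803124) ranked 7261 and 9759 in the live libraries, 14537 and 5497 in the high libraries and 11534 and 13758 in the low libraries. Both live libraries ranked it better than both low libraries, and the high libraries spanned the others. The region 24.9 kb upstream (chr3:187770345-187770484) ranked 18150 and 23528 in live, 6351 and 16041 in high and 12990 and 10153 in low. All 4 sorted libraries ranked it better than both live libraries.

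At BACH2, the intronic region 12.0 kb into the gene (chr6:90284827-90284919) was in all 6 best lists although the start was in none. It ranked 23142 and 24113 in live, 8723 and 12776 in high and 14163 and 18920 in low, so the groups were ordered high, low, live without overlap. The region 72.4 kb upstream (chr6:90369142-90369248) ranked 967 and 5937 in live, 11333 and 6489 in high and 6691 and 6256 in low, better in both live libraries than in any sorted library. The best ranks in any window, 141 and 160 in the live libraries, belonged to a region 467.1 kb downstream of the BACH2 start. That region lies 106 bases from the start of the neighbour CASP8AP2, and it ranked 319 and 232 in high and 1116 and 868 in low. A region inside CASP8AP2, 461.6 kb downstream, ranked 6812 and 6829 in live, 2683 and 6132 in high and 10359 and 9519 in low.

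At PRDM1, the region 96.3 kb downstream of the main start and outside the gene (chr6:106182617-106182665) ranked 5922 and 6139 in live, 4121 and 4526 in high and 15045 and 4720 in low. The region 15.8 kb downstream, within the gene (chr6:106102158-106102200), ranked 16925 and 15959 in live, 7114 and 11728 in high and 10864 and 10328 in low, better in all sorted libraries. The region 1.7 kb upstream of the main start (chr6:106084542-106084636) ranked 7090 and 14412 in live, 11493 and 11274 in high and 20178 and 8929 in low, with overlap. At the far end of the window, 193.2 kb upstream, a region at the start of the long noncoding RNA gene LOC105377923 ranked from 4964 to 9664.

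At IRF4, the region 26.7 kb upstream (chr6:364989-365072) lay between DUSP22 and IRF4 and ranked 6176 and 5008 in live, 7742 and 13270 in high and 8607 and 10296 in low. Both live libraries ranked it better than all sorted libraries. Inside DUSP22, the region 63.4 kb upstream of IRF4 ranked 8432 and 12101 in live, 8047 and 7185 in high and 11292 and 11078 in low. The regions 85.7 and 73.9 kb upstream ranked 4761 to 9400 and 8414 to 14827, with overlap between all groups.

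At XBP1, 3 of the 4 regions held by all lists were at other genes. The region 58.7 kb downstream, 97 bases from the start of the checkpoint kinase gene CHEK2, ranked 1075 and 2198 in live, 5087 and 2806 in high and 1366 and 2653 in low. The region 51.3 kb downstream, inside the iron-sulfur cochaperone gene HSCB, ranked 2697 and 11344 in live, 14320 and 13503 in high and 8576 and 5356 in low. The region 82.9 kb upstream, beside the first base of the ubiquitin ligase gene ZNRF3 (chr22:28883352-28883519), ranked 16666 and 10247 in live, 3914 and 1006 in high and 523 and 288 in low. Every sorted library ranked this last region better than both live libraries.

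Of the 23 regions in all 6 best lists, both high libraries ranked 7 better than both low libraries, and both low libraries ranked 6 better than both high libraries. Over all 14593 such regions the shares were 24.7% and 24.3%, and those of the members were 30.4% and 26.1%, near them. BACH2 had 3 of its 4 regions better in high and 0 better in low, and XBP1 had 0 of 4 better in high and 4 better in low. PRDM1 had 2 of 6 better in high and 1 in low, IRF4 had 2 of 7 and 1, and BCL6 had 0 of 2 and 0. A difference between loci was not tested. All 4 sorted libraries ranked 6 of the 23 better than both live libraries (15.9% over all regions), and both live libraries ranked 3 of the 23 better (15.4%).

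The same regions were then divided, after their values were seen, into those within 1 kb of a gene start or end and those elsewhere. At a gene start or end, 5 of 7 member regions were better in low and 1 of 7 in high, beside 36.6% and 14.3% of all such regions. Elsewhere, 1 of 16 was better in low and 6 of 16 in high, beside 10.9% and 36.1%. The starts of IRF4 and XBP1 were among the 5, and the BACH2 intronic region and the PRDM1 regions 55.6 and 96.3 kb downstream were among the 6. What part the place has in these counts was not tested.

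**Figure D4:**
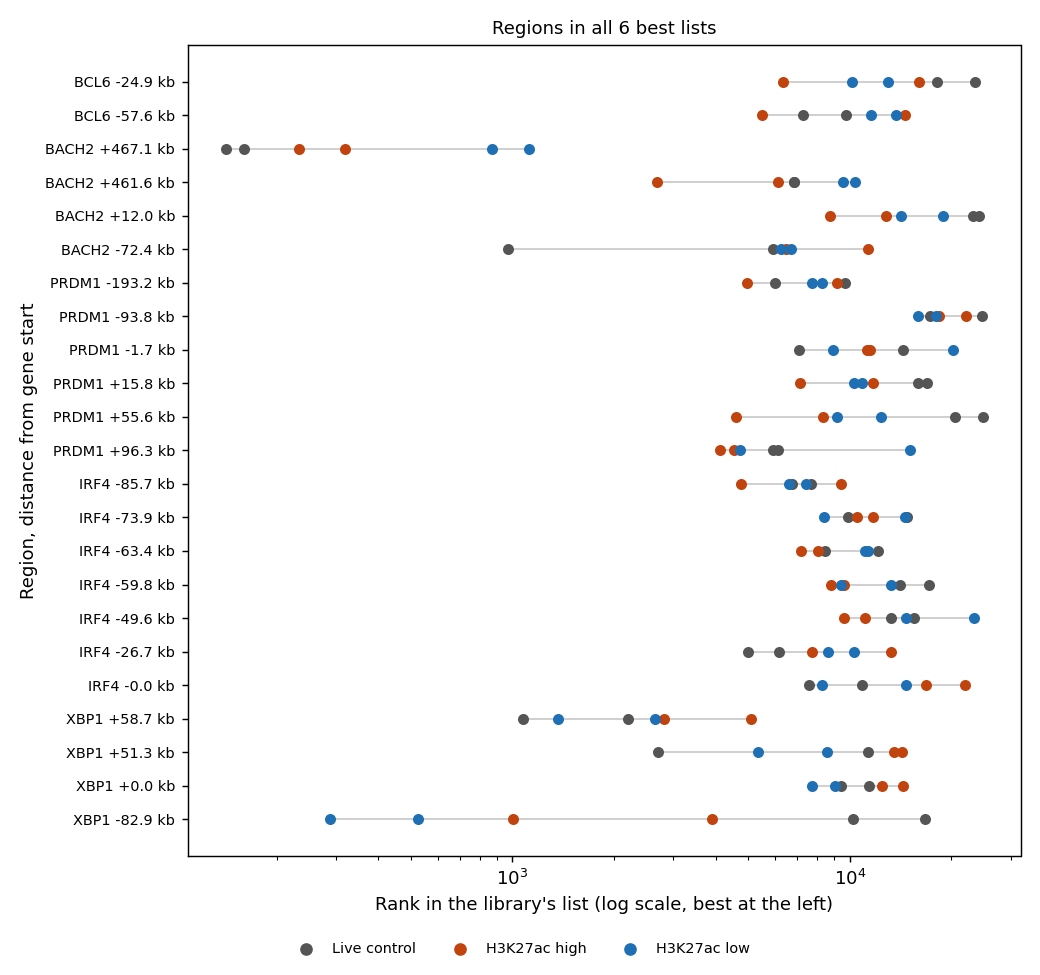
Ranks of the 23 regions held by all 6 best lists, on a log axis with the best at the left; each point is 1 library and the grey line spans the 6. In all 4 XBP1-window regions the low libraries lie left of the high libraries, and in the BACH2-window regions 467.1, 461.6 and 12.0 kb downstream the high libraries lie left of the low libraries.

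Regions held by 1 sorted group alone were few. Of 48 member regions in a best list of a sorted library, 2 were in both high and neither low list, and 1 was in both low and neither high list; over all regions the shares were 2.61% and 3.63%. The high-only regions were the BCL6 start and a region 77.8 kb downstream of the PRDM1 start (chr6:106164133-106164221), at ranks 9590 and 14518 in high. The low-only region lay beside the latter, 78.3 kb downstream (chr6:106164567-106164715), at ranks 16279 and 24927 in low. Live replicate 2 had the first of this pair at rank 14743 and live replicate 1 the second at rank 17534, so each of the 6 libraries held 1 of the pair and lacked the other. With summits joined under 500 bp, no low-only region was left and 1 high-only region was.

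Of 52 member regions in any best list, 0 were in all 4 sorted lists and neither live list, beside 1.42% of all regions, and 1 was in both live lists and no sorted list, beside 2.18%. The live-only region lay in the BACH2 body, 356.2 kb from the start (chr6:89940586-89940629), at ranks 20173 and 25606, the second of these near the end of the best list. High replicate 2 and low replicate 1 listed it lower, at ranks 41550 and 36274.

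Other genes of the switch were read at their ends, a gene counting as open where a best region lay within 1 kb of either end; over the whole genome 8112 of 19974 protein-coding genes (40.6%) met this in each of the 6 libraries. Of 20 plasma cell and unfolded protein response genes, 15 were open in all 6 (75.0%), and between 16 and 18 in any single library, where 44.9% to 49.9% of all genes were open. SEL1L, a subunit of the machinery that removes misfolded proteins from the endoplasmic reticulum, ranked between 4 and 106. DNAJB9, a cochaperone of the same compartment, ranked between 19 and 486, and CREB3L2, a membrane-bound transcription factor, between 49 and 311. HSPA5, the chaperone BiP, ranked between 271 and 1782. The immunoglobulin joining chain gene JCHAIN had no summit at either end in any library, and the interleukin 6 receptor gene IL6R was in no best list. SDC1, the plasma cell surface proteoglycan CD138, was in 3 of 6 best lists.

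Of 22 germinal centre genes, 10 were open in all 6 (45.5%), close to the share of all genes (40.6%). Between 11 and 15 were open in any single library, a higher share than the 44.9% to 49.9% of all genes. The 10 were GCSAM, EZH2, POU2AF1, EBF1, FOXO1, CIITA, MYBL1, ELL3, ID3 and TCF3. MEF2C, POU2F2 and BCL11A had no summit at an end, while their windows held a mean of 11.17, 13.17 and 3.33 best regions. PAX5, the B cell identity factor that BLIMP1 represses, was in 1 best list, at rank 21984 in high replicate 1. IRF8, a relative of IRF4, was in both low and neither high best list, with ranks of 20834 and 17961 in low. Its live ranks were 21631 and 26439, the first of them inside the best list. Of all genes, 1.46% were in both low and neither high best list and 0.255% had the opposite pattern, which no gene of either list had.

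The labelled cell type was checked in the same way. Of 11 B lymphoblast markers, 6 were open in all 6 libraries (54.5%), beside 40.6% of all genes. Among the 6 were the CD20 gene MS4A1 and the invariant chain gene CD74, but the marker CR2 was in no best list. CD70, another of the 11, was in both low and neither high best list, a pattern that 1.46% of all genes had. It was also in both live best lists, at ranks 16853 and 14564. EBF1 and PAX5 are in this marker list and in the germinal centre list. Of 8 T and NK cell markers, 1 was open in all 6 (CD3E), between 1 and 3 in any single library, and 4 in none. Of 6 myeloid and 5 erythroid markers, 0 were open in any best list. Over all genes 45.5% were open in none, a share that the T and NK cell markers were near. Of the 3 plasma cell markers, TNFRSF17 was open in all 6, SDC1 in 3 and JCHAIN in 0.

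The genes whose 6 window counts were most like those of a member were looked up as a description, over 6 libraries. For IRF4 this was KYNU, with the same 6 counts, then CBLB and STK24 with summed differences of 1 and 2. For PRDM1 these were DHRS1 and FAM193B (summed difference 1) and AP3D1 (2). For BACH2 these were LYPLAL1 and MAP3K3 (1) and DNTTIP1 (2). BCL6 shared its 6 counts with MDFIC, ROPN1L and VSNL1. XBP1, with 5 in every library, shared its counts with 44 genes, of which ACOX3, ASL and BZW1 come first by symbol.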

How the data were processed

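The authors deposited 1 list of peak summits per library, each with a score that was read as a −log10 of a p-value or q-value (lowest 2.02). Per the submitters' processing notes, bcl2fastq, FastQC, Bowtie2, Picard and MACS2 were used, with builds hg38 and hg19; the sources used here give no versions, settings or Tn5 shift. Contig names place the lists on hg38. No read counts were used here, so depth is unknown; scores grow with depth and only ranked regions within a library. The antibody target, written H3K37ac in the staining text of the labels, was read as H3K27ac.

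Summits on chromosomes 1 to 22 and X were chained under 250 bp and ranked (Python 3.11.15, pandas 2.3.3, numpy 2.4.6), ties by a seeded draw, and the best 25627 regions per library kept. Genes and promoters came from RefSeq tables (GRCh38.p14); the promoter table held starts for 15812 of 19974 protein-coding genes, so lists used gene ends. Libraries were compared with exact two-sided permutation tests and Benjamini-Hochberg adjustment over 18613 genes. The region and window counts were tested on simulated lists. The members, lists and tests were chosen with earlier results of these data known. The text names the region nearest each start, the 4 regions per locus in all 6 lists with the best worst rank, every group-only region and the 3 most alike genes; the PRDM1 regions 93.8 kb upstream and 55.6 kb and 11.6 kb downstream and the examples from the gene lists were named after their values were seen. Some single genes of the lists are not reported here. Alternatives were list length, chaining distance, window, assignment, the replicate block and each library left out.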

Additional observations from a re-analysis of the deposited data

How the results depend on the processing

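Differences are best regions per window, high minus low or sorted minus live, and where a value changed the cause was not tested. Of the alternative values for these differences and for the counts over the 5 windows, 18 changed sign, 68 moved and 206 stayed alike. Only a difference that was not 0 in the main setting could change sign. Moved means a change to or from 0 for single windows, and a change beyond a set limit for values over the 5 windows. For differences in single windows, keeping the direction did not mean keeping the size. The PRDM1 difference between high and low kept its sign in all alternatives but 1. Full lists follow list length. They gave high minus low of -1.5 for BCL6, -3.5 for BACH2, -4.0 for PRDM1, -2.0 for IRF4, -2.0 for XBP1 and -13.0 over the 5 windows. They gave sorted minus live of -5.25 for BCL6, -4.25 for BACH2, -6.5 for PRDM1, -5.0 for IRF4, -3.5 for XBP1 and -24.5 over the 5 windows. They also gave 1.0 high-only, 3.0 low-only and 6.0 live-only regions and 11.0 regions ranked better in high. With the best 50 percent of the list length, high minus low was 0.0 for BCL6, 0.5 for BACH2, 2.0 for PRDM1 and -2.5 for XBP1, and sorted minus live was 0.75 for BACH2, 0.5 for IRF4 and -0.25 for XBP1. At that length there were 2.0 low-only and 3.0 sorted-only regions, and 3.0 regions ranked better in high, 1.0 in low and 0.0 in sorted. With the gene body only, both BCL6 differences were 0.0, the PRDM1 differences were -0.5 (high minus low) and 0.25 (sorted minus live), IRF4 was 0.5 for high minus low and BACH2 was -1.25 for sorted minus live. There, sorted minus live over the 5 windows was -0.75, high-only and low-only regions were 0.0 each, and regions ranked better were 1.0 for high, 2.0 for low, 2.0 for sorted and 0.0 for live. With 50 kb either side, sorted minus live was 0.5 for BCL6, -1.25 for BACH2, -0.25 for IRF4, -0.25 for XBP1 and 0.25 over the 5 windows, and high minus low was -1.0 for PRDM1, 0.5 for IRF4 and -0.5 for XBP1. That window held 1.0 high-only and 0.0 low-only regions, and had 3.0 regions ranked better in high and 1.0 in live. With regions given to the nearest gene only, high minus low was 0.0 for BACH2 and 0.5 for IRF4, and sorted minus live was -0.25 for IRF4. There were then 1.0 high-only and 0.0 low-only regions, with 2.0 ranked better in high, 3.0 in low and 1.0 in live. Chaining under 500 bp gave sorted minus live of -0.25 for IRF4 and -0.25 for BACH2, with 1.0 high-only, 0.0 low-only and 0.0 live-only regions, and chaining under 100 bp gave 0.0 low-only and 2.0 live-only regions.

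Leaving out 1 library at a time, with the lists kept at 25627, gave high minus low from -1.5 to 1.5 and sorted minus live from 1.5 to 3.5 over the 5 windows. By member, high minus low ran from -2.5 to -1.5 for PRDM1, 0.5 to 2.5 for IRF4 and -1.5 to 0.5 for BACH2, and stayed 1.0 for BCL6. Sorted minus live ran from 1.5 to 2.5 for PRDM1, 0.5 to 1.5 for BCL6, -0.33 to 0.67 for IRF4 and -1.75 to 0.25 for BACH2. The positive BACH2 values between high and low came without high replicate 2, and between sorted and live without live replicate 1; the negative IRF4 value came without high replicate 1. Counts that need agreement among fewer libraries can only rise: high-only regions ran from 2.0 to 7.0, low-only from 1.0 to 5.0, sorted-only from 0.0 to 2.0 and live-only from 1.0 to 4.0. Regions ranked better ran from 7.0 to 13.0 for high, 6.0 to 13.0 for low, 6.0 to 9.0 for sorted and 3.0 to 7.0 for live. Without high replicate 1 and with lists lengthened to 41828, an alternative chosen after seeing the data, high minus low was -0.5 for BCL6, 0.0 for BACH2, -1.0 for PRDM1, 2.5 for IRF4 and -1.5 for XBP1, and sorted minus live was -0.67 for BCL6, 0.0 for BACH2, 1.33 for IRF4 and 0.5 for XBP1. There were then 6.0 high-only, 4.0 low-only, 1.0 sorted-only and 3.0 live-only regions, and 13.0 regions ranked better in high, 15.0 in low and 5.0 in live.

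With the replicate block, differences within same-numbered libraries equalled the values without it, such as -2.0 for PRDM1 between high and low, and an exact sign-flip test cannot go below 0.5. Over all windows, the differences between replicates correlated at 0.02 to 0.12 between groups. Lists of equal length take out differences in list length, so these values cannot decide whether same-numbered libraries shared a batch. Unknown depth limits all of these values: a region outside a list may be closed or may have had too few reads, and the exact tests used here can make no call at 0.05 with 2 libraries per group.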
